A study of Mus musculus with 2 samples.

Results

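The genes described here encode the mitochondrial carrier family and the machinery that imports proteins into mitochondria. They were the rows of both deposited tables whose gene symbol starts with *Slc25a*, *Timm* or *Tomm* followed by a digit. This gave 72 of the 23793 gene rows, of which 47 were carriers (*Slc25a*), 24 were import genes (14 *Timm* and 10 *Tomm*) and 1 was *Tomm6os*, an antisense RNA that shares the name but makes no import protein. *Tomm6* shares its row with *Prickle4*, and the value of that joined row is used for it.

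Messenger RNA was measured in small-intestinal organoids, cultures of gut epithelium grown from isolated crypts in Matrigel with epidermal growth factor, noggin and R-spondin-conditioned medium. They came from mice of the strain labelled ChgA-GFP, in which chromogranin A-expressing cells carry green fluorescent protein (GFP). Dissociated cells were sorted into GFP+ cells, about 1% of the epithelium, and the GFP- cells that remained. There was 1 library per fraction, so differences are described by size alone, with no test and no replicate error. The labels give no age, no sex and no number of animals or cultures.

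The check of the sort rested on 5 of 7 enteroendocrine marker genes, since *Chga* and *Chgb* had no estimate in the GFP+ library. All 5 (*Tph1*, *Tac1*, *Neurod1*, *Scg2* and *Pcsk1*) were at least 4-fold higher in GFP+, with a summed level of 4769 against 120 FPKM (fragments per kilobase, a level corrected for transcript length and library size). Markers of other epithelial cells were then compared. The 7 Paneth cell markers summed to 760 FPKM in GFP+ versus 12577 FPKM in GFP-, and all 7 were at least 4-fold lower. The 9 stem and proliferation markers summed to 422 against 1687 FPKM, with 5 of the 9 at least 4-fold lower. Sums for enterocyte, goblet and tuft markers were 1677, 1290 and 5.38 FPKM in GFP+ against 3538, 3079 and 17.8 FPKM in GFP-. Those sums rest on a few abundant genes, such as *Fabp1* (470 against 2157 FPKM) and *Spink4* (139 against 1535 FPKM), and the members were mixed. Of 8 enterocyte markers, 4 were higher in GFP+ (*Sis*, *Lct*, *Vil1* and *Apoa4*), as were 2 of 6 goblet markers (*Fcgbp* and *Muc2*) and 1 of 5 tuft markers (*Dclk1*). Non-epithelial markers were low, with sums of 3.59 against 0.0191 FPKM for 4 fibroblast genes, 2.74 against 0.657 FPKM for 3 immune genes and 10.4 against 0.187 FPKM for 2 endothelial genes, nearly all of the last from *Pecam1*. The brown fat and muscle markers *Ucp1*, *Ckm* and *Myh1* were listed at 0 in GFP- and summed to 0.0910 FPKM in GFP+. In sorted bulk material, a lower share of cells that express a gene and less RNA per cell cannot be told apart, and the part of these other cell types in the differences below was not tested.

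Mitochondria make few of their own proteins, so most are made in the cytosol and brought in through membrane gates. The TOM complex is the gate of the outer membrane. Behind it, the TIM23 complex takes precursors with a cleavable presequence into the matrix, and small TIM chaperones carry membrane proteins across the intermembrane space, among them carriers that the TIM22 complex then inserts. Carriers of the Slc25 family are the largest such group: most move a small molecule, such as ATP, phosphate, citrate or an amino acid, across the inner membrane. The family also holds a peroxisomal member and an outer membrane member. The absorptive and secretory cells of the gut rely on them for energy, lipid synthesis and amino acid metabolism.

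Import genes were mostly lower in the GFP+ library, while carriers were spread around no difference, and 1 carrier, *Slc25a35*, was far higher. Differences are given as log2((FPKM + 1) in GFP+ / (FPKM + 1) in GFP-), and members of at least 1 FPKM in either library, 61 of the 72, were counted. A size rule of 4-fold (a difference of at least 2) was met by 5 members as lower and 1 as higher, where 4.59% and 7.09% of the 11868 genes tested met it. At 2-fold (a difference of at least 1), 22 members were lower and 4 higher, where 23.1% and 20.1% of all tested genes were. Of the 22 import genes tested, 20 had a difference below 0, 15 were at least 2-fold lower and 0 were 2-fold higher, with a median of -1.34 (range -2.74 to 0.32). Of the 39 carriers tested, 22 were below 0, 7 were at least 2-fold lower and 4 at least 2-fold higher. Their median was -0.08 (range -1.89 to 3.60). Among these carriers, 3 passed 1 FPKM only through GFP+, so their sign was set by the filter. With a minimum of 5 FPKM the carrier median was -0.37 over 33 carriers, and that of the import genes stayed at -1.34. The median over all tested genes was -0.12. As a share of the summed FPKM of a library, which no scaling changes, import genes held 0.180% in GFP+ and 0.335% in GFP-, and carriers 0.576% and 0.640%. These sums leave out the 5 rows with no estimate in GFP+, among them *Chga* and *Chgb*, whose weight in GFP+ is not known.

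The direction of the carriers depended on how the libraries were scaled. Well-expressed genes (at least 10 FPKM in both libraries, 5563 genes) had a median log2 ratio of -0.50 as deposited. With that median set to 0, the median of all tested genes became 0.35, that of the carriers 0.39 and that of the import genes -0.92. With both libraries rescaled to one total, the 3 medians were 0.50, 0.41 and -0.85. That total, too, lacks the rows with no estimate in GFP+. Import genes therefore lay below the median of all tested genes under each of the 3 scalings, and 19 of 22 stayed below 0 with the median ratio set to 0 and 18 of 22 with one total. At 2-fold, 10 import genes were lower with the median ratio set to 0 and 8 with one total.

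Counts over all members moved in the same way. With the median ratio set to 0, 2 members were at least 4-fold lower and 2 higher (1.51% and 10.8% of tested genes), and 12 were at least 2-fold lower and 10 higher (12.5% and 30.2% of tested genes). With one total, 1 member was at least 4-fold lower and 3 were higher (1.2% and 13.4% of tested genes), and 10 were at least 2-fold lower and 12 higher (10.7% and 34.7% of tested genes). The members 4-fold higher were *Slc25a35* and *Slc25a44* in the first case, joined by *Slc25a29* in the second, and *Tomm5* was 4-fold lower in both.

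**Figure D1:**
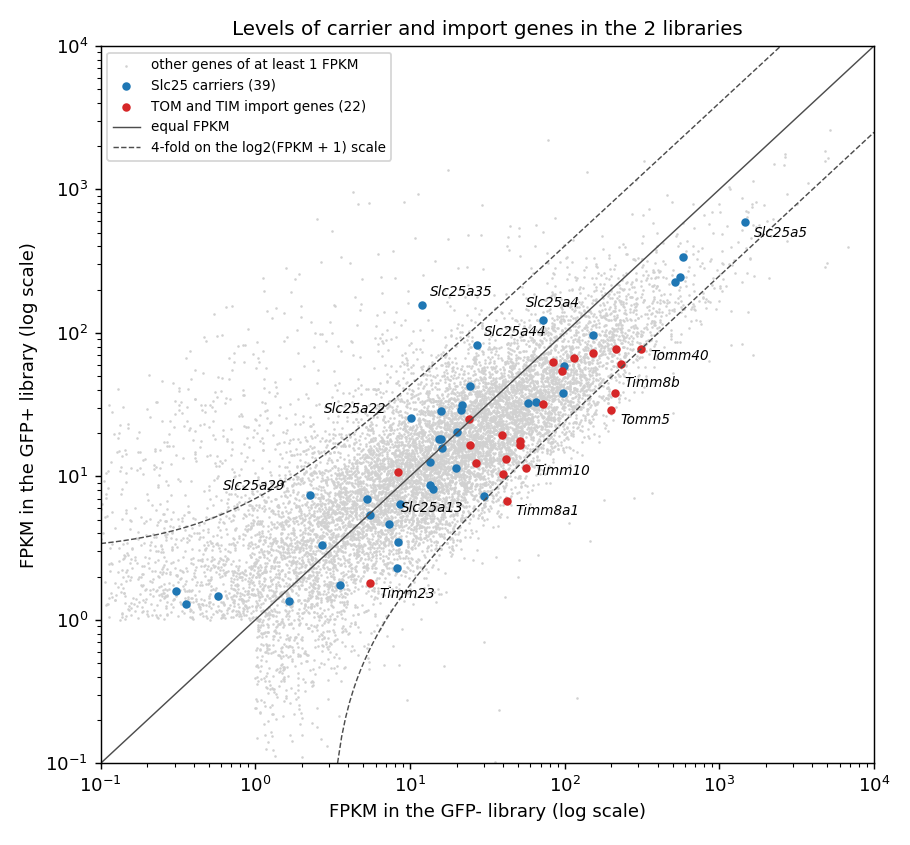
FPKM of each gene in the GFP- library (x axis, log scale) and the GFP+ library (y axis, log scale), for 39 carriers (blue), 22 import genes (red) and the other tested genes (grey). The solid line marks equal FPKM and the dashed lines a 4-fold difference on the log2(FPKM + 1) scale: *Slc25a35* is the only member above the upper dashed line, and 5 import genes lie below the lower one.

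The outer membrane gate was lower in most of its parts but not in its receptor *Tomm20*. *Tomm40* forms the pore (chromosome 7, 19701313 to 19715429, mm10, as listed in the files, like all loci below). It was at 76.7 FPKM in GFP+ versus 314 FPKM in GFP-, a difference of -2.02. *Tomm5*, a small subunit that stabilises the pore (chromosome 4, 45105210 to 45108113), was at 29.1 against 201 FPKM. Its difference of -2.74 was the lowest of all members and 81st from the bottom of the 11868 tested genes. *Tomm22*, the central receptor that joins pores together, was at 77.4 against 214 FPKM. The small subunit *Tomm7* was at 10.4 against 39.9 FPKM, and the joined row of *Tomm6* at 72.7 against 153 FPKM. The listed locus of *Tomm7* is a merged region shared with other genes, among them *Klhl7*, and its upper confidence bound in GFP+ was 61.6 FPKM. *Tomm40l*, a close relative of the pore protein, was at 12.4 against 26.9 FPKM. All 6 of these rows were thus at least 2-fold lower as deposited, where 23.1% of all tested genes were. Of the 9 *Tomm* genes tested, 3 were at least 2-fold lower with the median ratio set to 0 (12.5% of all tested genes). With one total, 3 were as well (10.7%).

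The central receptor *Tomm22*, given above, was at least 2-fold lower as deposited, as the pore was. It fell short of 2-fold with the median ratio set to 0 (-0.96) and with one total (-0.84). As deposited, 3 other genes that handle incoming precursors were nearer to no difference. *Tomm70a*, a receptor for carrier precursors, was at 62.7 FPKM in GFP+ versus 83.5 FPKM in GFP-, a difference of -0.41. *Tomm20*, a receptor for presequences, was at 10.7 against 8.41 FPKM, and the cytosolic cofactor *Tomm34* at 25.2 against 24.0 FPKM. Differences of 0.32 and 0.07 made these the 2 import genes above 0 as deposited. *Tomm70a* was above 0 as well with the median ratio set to 0 (0.09) and with one total (0.21). *Tomm20l* was listed at 0 in both libraries. *Tomm20* and *Tomm70a* have long transcripts (4902 and 5964 bases), and both lay below 0.58, the median of other genes of at least 4000 bases. *Tomm40l*, at 4712 bases, lay further below it (-1.06). *Tomm34* (2302 bases) lay above the -0.18 of other genes of its length, as *Tomm6* (749 bases, -1.06) lay above -1.23. The part of length in the contrast between receptors and pore was not tested.

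Small TIM chaperones had the lowest median of the import groups, at -1.84 over 6 tested genes. *Timm8a1* (chromosome X, 134537258 to 134541629), whose human counterpart is mutated in a deafness-dystonia syndrome, was at 6.78 FPKM in GFP+ versus 42.2 FPKM in GFP-. *Timm8b* (chromosome 9, 50603901 to 50625000, a listed locus shared with *AU019823* and *Pih1d2*) was at 38.3 against 212 FPKM. *Timm10* (chromosome 2, 84827021 to 84830213) was at 11.5 against 55.9 FPKM. With differences of -2.47, -2.44 and -2.19, these 3 were at least 4-fold lower. *Timm9*, which forms a ring-shaped complex with the *Timm10* product, was at 17.7 against 51.5 FPKM, so neither subunit of that ring was near equal between the libraries. *Timm13*, the partner of the *Timm8* proteins, was at 53.9 against 95.7 FPKM, and *Timm10b*, which links the ring to TIM22, at 19.4 against 39.2 FPKM. Their differences of -0.82 and -0.98 did not reach 2-fold. *Timm8a2* was listed at 0 in both libraries.

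All 6 genes of the TIM23 complex and its motor were lower as deposited, 5 of them at least 2-fold (23.1% of all tested genes were). The 5 became 3 with the median ratio set to 0 (12.5% of all tested genes) and 2 with one total (10.7%). All 6 stayed below 0 under both. *Timm50*, the receptor that takes over presequences from TOM, was at 60.4 FPKM in GFP+ versus 231 FPKM in GFP-, a difference of -1.92. *Timm44*, which anchors the import motor, was at 31.8 against 71.9 FPKM, and *Timm21*, which bridges TOM and TIM23, at 13.2 against 41.7 FPKM. The core subunit is made from 2 related genes that differed in degree: *Timm17b* was at 16.5 against 51.3 FPKM and *Timm17a* at 66.8 against 114 FPKM. The channel gene *Timm23* was listed at only 1.79 against 5.54 FPKM. Its level is uncertain, because 5 other annotated genes, 4 of them pseudogenes, match its transcript at 95% identity or more over at least 50% of its length, and how reads with several matches were assigned is not stated in the labels or headers. *Timm22*, the core of the carrier translocase, was at 16.6 against 24.5 FPKM, and its difference of -0.53 turned to 0.06 with one total.

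Promoter sequence just before the start is shown for members at least 4-fold lower, since these lay the same way. *Timm8a1* is left out because annotated exon covers all 100 bases of its stretch, where up to 30 were allowed. Annotated exon also covers 24 bases of the *Timm10* stretch, 9 of *Tomm40* and 1 of *Tomm5*. The marked letters of *Timm10* lie within its 24 exon bases. Each line gives the 100 bases before the RefSeq start (GRCm38.p6), 5′ to 3′ on the gene's strand. Capitals mark matches to 2 motifs searched on both strands, CCGGAAG (an ETS-type site) and GGGCGG (a GC box).
Tomm5 (chr4:45108114-45108213, minus strand): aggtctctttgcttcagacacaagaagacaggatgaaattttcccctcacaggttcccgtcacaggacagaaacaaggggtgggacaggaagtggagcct
Timm8b (chr9:50603801-50603900, plus strand): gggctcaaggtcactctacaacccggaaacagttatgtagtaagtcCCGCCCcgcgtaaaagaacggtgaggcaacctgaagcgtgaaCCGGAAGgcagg
Timm10 (chr2:84826921-84827020, plus strand): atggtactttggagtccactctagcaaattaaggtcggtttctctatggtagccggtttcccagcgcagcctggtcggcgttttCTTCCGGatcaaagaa
Tomm40 (chr7:19715430-19715529, minus strand): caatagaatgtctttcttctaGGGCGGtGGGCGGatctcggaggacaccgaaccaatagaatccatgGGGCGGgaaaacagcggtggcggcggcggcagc

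These 4 stretches share no single match: *Timm8b* and *Timm10* hold the ETS-type letters, *Timm8b* and *Tomm40* the GC box, and *Tomm5* neither. Over the whole window of the table (250 bases before to 50 after the start), CCGGAAG was found for 7 of the 19 tested import genes with an entry (36.8%), for 6 of 30 tested carriers and for 20.5% of 9074 tested genes. GGGCGG was found for 10 of the 19 import genes (52.6%), 27 of the 30 carriers (90.0%) and 69.2% of the tested genes. The letters CACGTG, an E-box, matched 4 of 19 import genes, 6 of 30 carriers and 12.1% of tested genes, and ATGGCGGC (YY1) matched 2, 1 and 5.74%. Such matches describe letters in a window and say nothing of binding.

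Among the carriers, *Slc25a35* stood apart. This member with no firmly assigned substrate (chromosome 11, 68968131 to 68975185) was at 156 FPKM in GFP+ versus 12.0 FPKM in GFP-. The ratio was 13.0 and the difference 3.60. Upper confidence bounds were 340 and 29.2 FPKM. In GFP- it ranked 25th among the carriers and in GFP+ it ranked 5th. Its difference was 237th from the top of the 11868 tested genes, and it met the 4-fold rule at each pseudocount and scaling tried (3.25 to 4.26). The listed locus is shared with *Rangrf*, an overlapping gene whose own row went the other way, at 9.002 FPKM in GFP+ versus 14.5 FPKM in GFP-.

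The other carriers at least 2-fold higher in GFP+ move amino acids. *Slc25a44*, a carrier of branched-chain amino acids (chromosome 3, 88410494 to 88425141), was at 81.7 FPKM in GFP+ versus 26.99 FPKM in GFP-. Its difference was 1.56, and reached 4-fold under both other scalings (2.06 and 2.19). *Slc25a29*, a carrier of basic amino acids, was at 7.40 against 2.25 FPKM, and passed 4-fold with one total only (2.06). *Slc25a22*, a glutamate carrier, was at 25.3 against 10.1 FPKM, a difference of 1.24. The second glutamate carrier, *Slc25a18*, was listed at 0 in both libraries. The role group of amino acid, carnitine and ornithine carriers, which does not hold *Slc25a22*, was not higher as a class. Its median was -0.73 as deposited over 5 tested genes. *Slc25a15*, which exchanges ornithine for the urea cycle, was at 38.2 against 97.6 FPKM, *Slc25a20*, the carnitine carrier, at 33.0 against 64.8 FPKM and *Slc25a38*, a glycine carrier needed for heme synthesis, at 8.10 against 14.1 FPKM.

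For the exchange of ATP for ADP, which supplies the cell with ATP, the balance of isoform messages differed between the 2 libraries. *Slc25a5* was the most abundant member in both, at 589 FPKM in GFP+ versus 1461 FPKM in GFP- (chromosome X, 36795652 to 36798806). *Slc25a4*, the isoform best known from heart and muscle (chromosome 8, 46207341 to 46211009), went the other way, at 124 against 72.9 FPKM. *Slc25a5* thus stood at 20.03 times *Slc25a4* in GFP- and 4.76 times in GFP+, and such a ratio within a library does not depend on scaling. Transcripts of 2 pseudogenes match *Slc25a5* at 95% identity or more. The germ cell isoform *Slc25a31* stayed below 1 FPKM, at 0.0511 and 0.0256 FPKM.

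Phosphate enters mainly through *Slc25a3*, at 225 FPKM in GFP+ versus 518 FPKM in GFP-, a difference of -1.20. The calcium-regulated ATP-Mg/phosphate carriers did not share that direction as deposited. *Slc25a24* was at 42.7 against 24.4 FPKM and *Slc25a25* at 28.8 against 21.5 FPKM, with differences of 0.78 and 0.41. *Slc25a23*, the third of them, was at 4.63 against 7.30 FPKM, so *Slc25a24* stood at 9.21 times *Slc25a23* in GFP+ and 3.34 times in GFP-. *Slc25a41* was listed at 0 in both libraries.

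Carriers of carboxylates were lower or near equal apart from *Slc25a22*. *Slc25a1*, which exports citrate for lipid synthesis, was at 245 FPKM in GFP+ versus 556 FPKM in GFP-, and was the third most abundant carrier in both. *Slc25a10*, the dicarboxylate carrier, was at 58.7 against 98.6 FPKM, and *Slc25a11*, the oxoglutarate carrier of the malate-aspartate shuttle, at 97.0 against 152 FPKM. Their differences of -0.74 and -0.64 lay close to the -0.50 of a typical well-expressed gene. The 2 aspartate/glutamate carriers of the same shuttle were in opposite order in the 2 libraries: *Slc25a13*, the form prominent in liver, was at 7.35 against 29.9 FPKM, and *Slc25a12*, the form prominent in brain and muscle, at 15.7 against 16.2 FPKM. *Slc25a13* was thus 1.85 times *Slc25a12* in GFP- and 0.469 times in GFP+. At -1.89, *Slc25a13* had the lowest difference of any carrier and met the 4-fold rule with a pseudocount of 0.1 (-2.01). *Slc25a21* was below 1 FPKM in both.

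**Figure D2:**
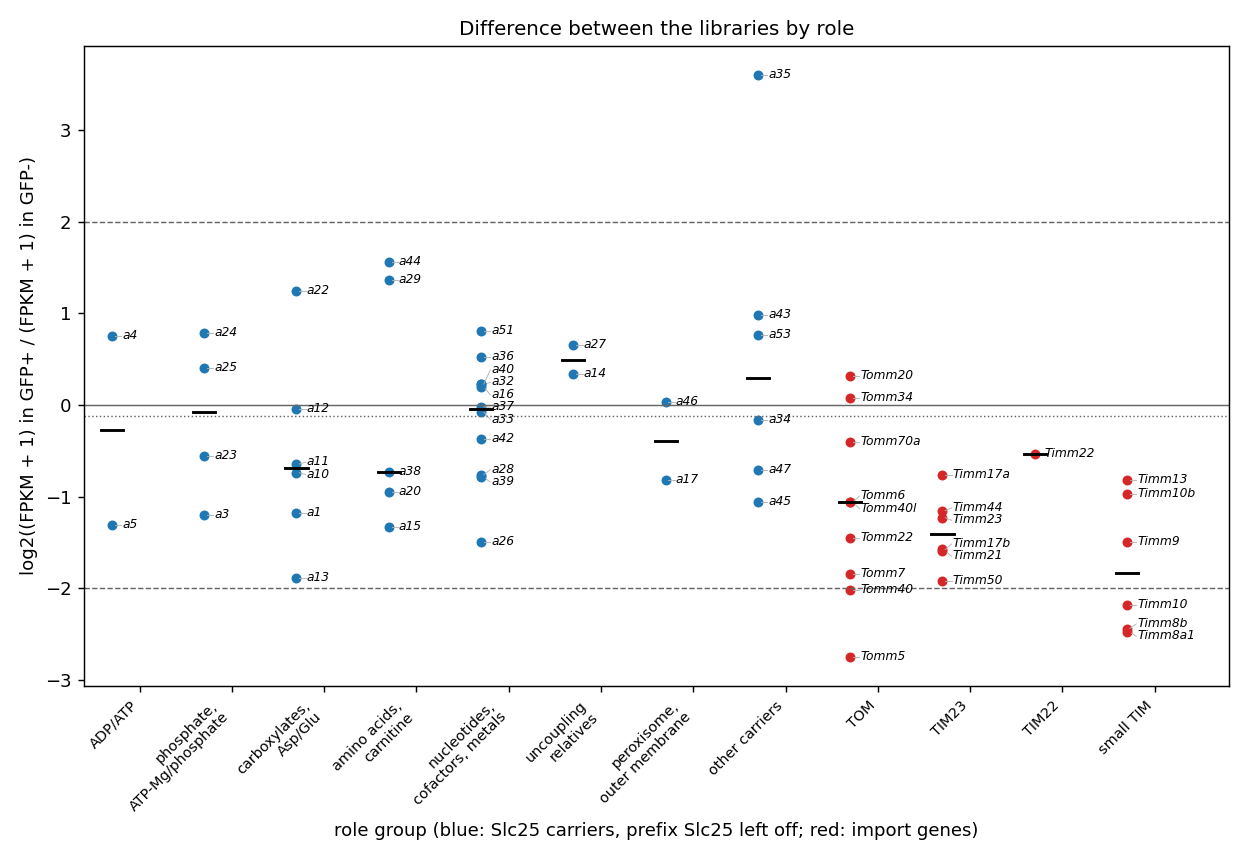
Difference between the libraries, log2((FPKM + 1) in GFP+ / (FPKM + 1) in GFP-), for the tested members by role, apart from 1 carrier that is not drawn (blue, carriers with the prefix Slc25 left off; red, import genes). Short bars are group medians over all tested members, the dotted line is the median of all tested genes (-0.12) and dashed lines mark 4-fold. TIM23 and small TIM genes all lie below 0, while most carrier groups hold members on either side.

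Carriers of nucleotides, cofactors and metals had a median of -0.05 over 12 genes, and 11 of the 12 were within 2-fold. *Slc25a39*, a glutathione carrier, was the second most abundant carrier in either library, at 337 FPKM in GFP+ versus 582 FPKM in GFP-. Its relative *Slc25a40* was at 3.32 against 2.69 FPKM. *Slc25a51*, which brings in NAD, was the highest of the group, at 28.5 against 15.9 FPKM. *Slc25a26*, which imports S-adenosylmethionine, was the lowest, at 2.30 against 8.27 FPKM, a difference of -1.49. Its listed locus is merged with that of *Lrig1*, and its upper bounds of 19.01 and 47.6 FPKM were wide. Among iron carriers, *Slc25a28* was at 11.3 against 19.9 FPKM and *Slc25a37* at 5.395 against 5.487 FPKM. For the pyrimidine nucleotide carriers, *Slc25a36* was at 31.4 against 21.5 FPKM and *Slc25a33* at 12.7 against 13.4 FPKM. The cofactor carriers *Slc25a16* and *Slc25a32* had differences of 0.20 and 0.23. *Slc25a42*, which moves coenzyme A, had a difference of -0.37 and was above 0 under either other scaling.

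The remaining carriers were mostly low. *Slc25a17*, the peroxisomal member, was at 32.5 FPKM in GFP+ versus 58.2 FPKM in GFP-, and *Slc25a46*, an outer membrane protein of mitochondrial shape, was at 20.52 against 20.03 FPKM. Of the relatives of uncoupling protein, *Slc25a14* was at 6.92 against 5.27 FPKM, *Slc25a27* at 1.47 against 0.572 FPKM and *Slc25a30* at 0.513 against 0.525 FPKM. No uncoupling relative reached 2-fold as deposited. Of the members with no firmly assigned substrate, *Slc25a43* was at 1.58 against 0.307 FPKM and *Slc25a53* at 1.30 against 0.355 FPKM. Together with *Slc25a27* these are the 3 members that passed 1 FPKM only through GFP+, so their sign was set by the filter. *Slc25a45* was at 3.49 against 8.36 FPKM, *Slc25a47* at 1.75 against 3.50 FPKM and *Slc25a34* at 1.36 against 1.64 FPKM. Below 1 FPKM in both were 8 carriers, among them *Slc25a2*, *Slc25a48* and *Slc25a54*, 2 import genes and *Tomm6os* (0.275 and 0.226 FPKM), and 4 members were listed at 0 in both.

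Pairs of related genes were then compared within each library, where scaling has no part. The pairs were chosen after the values had been seen, so they are a description. The ratio of *Slc25a5* to *Slc25a4* was 4.20 times as large in GFP- as in GFP+, and that of *Slc25a13* to *Slc25a12* 3.94 times. *Tomm40* stood at 11.7 times *Tomm40l* in GFP- and 6.21 times in GFP+. *Timm17a* moved the opposite way, at 2.23 times *Timm17b* in GFP- and 4.04 times in GFP+. The 2 small TIM genes *Timm8b* and *Timm8a1* kept nearly the same ratio, 5.03 and 5.65. *Tomm22* was 25.4 times *Tomm20* in GFP- and 7.205 times in GFP+, so the make-up of the TOM messages differed as well as their sum. Apart from *Timm8b* and *Timm8a1*, the gene of each of these pairs that gained in GFP+ has the longer annotated transcript. Lengths in bases are 1925 against 1240 (*Slc25a4*, *Slc25a5*), 6351 against 3121 (*Slc25a12*, *Slc25a13*) and 4712 against 1646 (*Tomm40l*, *Tomm40*). They are 7280 against 2381 for *Timm17a* and *Timm17b*, and 4902 against 1569 for *Tomm20* and *Tomm22*. The part of length in these shifts was not tested.

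**Figure D3:**
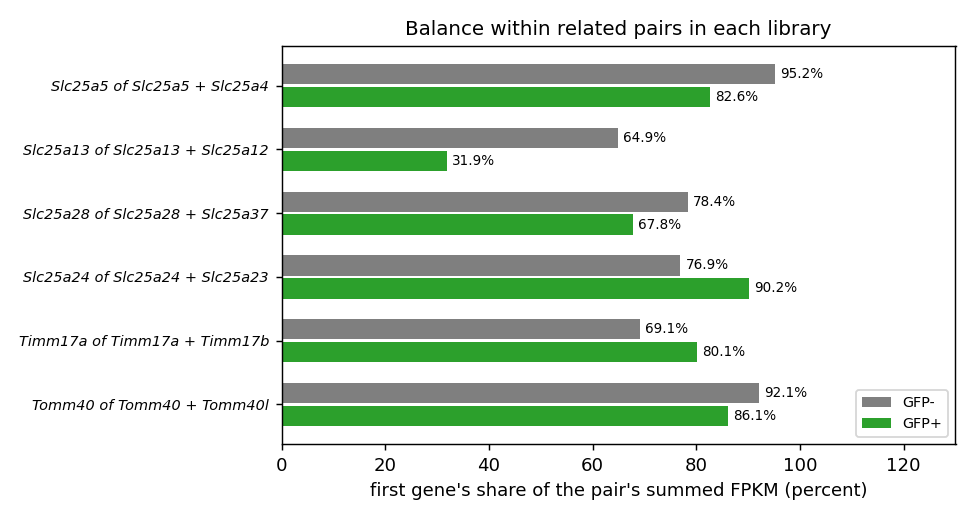
Share of the first named gene in the summed FPKM of a related pair (x axis, percent), in the GFP- library (grey) and the GFP+ library (green), 1 library each, with no error bars. *Slc25a13* held 64.9% of its pair in GFP- and 31.9% in GFP+, the widest shift of the 6 pairs.

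Transcript length went with the difference, and import genes have short transcripts. Over 11788 tested genes with a length in GENCODE M21 (longest coding transcript), Spearman's rho between length and difference was 0.46. It was 0.67 over the 22 import genes and 0.46 over the 39 carriers. These are correlations across genes of the same 2 libraries. The median transcript was 1718 bases for tested import genes, 2670 for carriers and 2990 for all tested genes. The members at least 4-fold lower include *Timm8b* at 518 bases, *Timm10* at 690 and *Tomm5* at 738.

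Values within length classes were therefore set side by side. Between 1000 and 2000 bases, 8 import genes had a median difference of -1.65, 16 carriers -0.74 and 2442 other genes -0.85. From 2000 to 4000 bases, the medians were -1.23 for 6 import genes, 0.20 for 17 carriers and -0.18 for 4770 other genes. At 4000 bases or more, they were -0.59 for 4 import genes, 0.13 for 6 carriers and 0.58 for 3721 others. Import genes thus lay below the other genes of their length in each of these classes, while carriers lay below them only in the longest. Of single genes, 19 import genes of 22 and 17 carriers of 39 lay below the median of the other genes in their class. Below 1000 bases, where 143 of 794 other genes were at least 4-fold lower, there were 4 import genes and no carrier. The part that length plays in the differences was not tested.

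**Figure D4:**
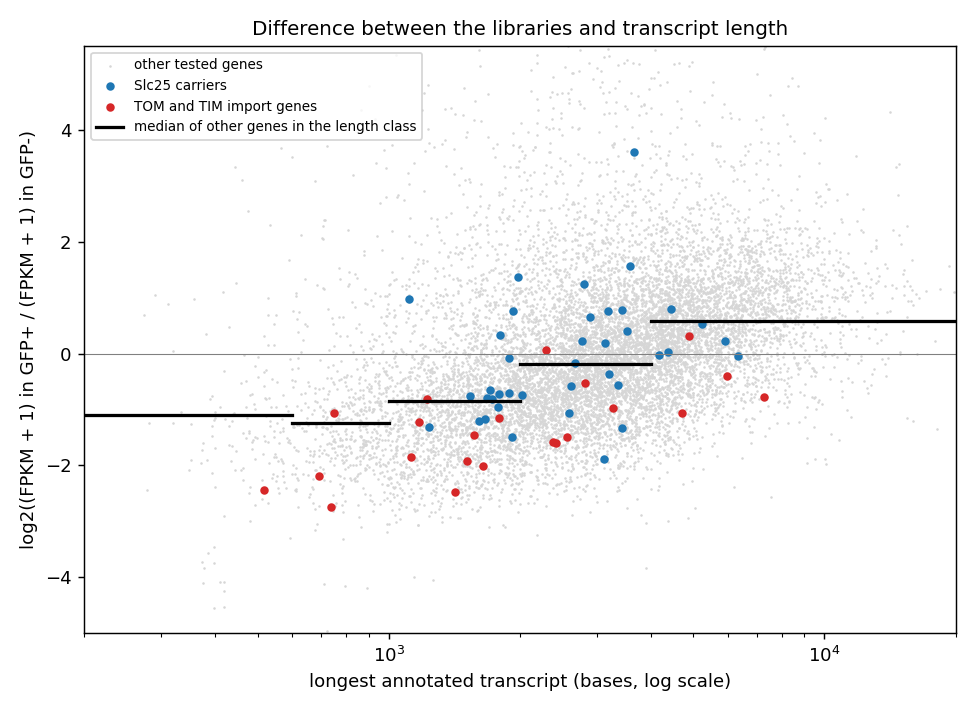
Difference between the libraries (y axis, log2 of (FPKM + 1)) against the longest annotated transcript (x axis, bases, log scale) for carriers (blue), import genes (red) and other tested genes (grey, those between -5 and 5.5 shown), with the median of the other genes in 5 length classes as black bars. The bars lie at -1.10 in the shortest class and 0.58 in the longest, and 19 of 22 import genes lie below the bar of their class.

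Partners of the import machinery that the gene symbols do not capture were mostly lower as well. Of 25 such genes, 23 reached 1 FPKM, 18 were at least 2-fold lower (23.1% of all tested genes were) and 0 were 2-fold higher, with a median of -1.51. The 18 became 12 of 23 with the median ratio set to 0 (12.5% of all tested genes) and 7 of 24 with one total (10.7%), where the medians were -1.04 and -0.91 and 1 gene was 2-fold higher. *Dnajc15*, a co-chaperone of the import motor, was at 20.1 FPKM in GFP+ versus 110 FPKM in GFP-. *Hspe1*, a folding chaperone of the matrix, was at 19.2 against 91.8 FPKM, *Mtx2*, an outer membrane assembly factor, at 32.04 against 131 FPKM, and *Immp1l*, an inner membrane peptidase, at 7.93 against 32.1 FPKM. The main motor chaperone *Hspa9* was less far apart, at 220 against 350 FPKM. *Grpel2*, a nucleotide exchange factor of that motor, was at 27.6 against 16.9 FPKM, while its relative *Grpel1* was at 23.0 against 58.2 FPKM.

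Other mitochondrial transport genes were mixed, as the carriers were. Of 24 tested, 5 were at least 2-fold lower and 4 at least 2-fold higher, where the shares of all tested genes were 23.1% and 20.1%. Their median of -0.51 turned to 0.05 with the median ratio set to 0 (3 lower and 5 higher of 25) and to 0.17 with one total (2 lower and 6 higher of 25). *Tspo*, an outer membrane protein, was at 52.4 FPKM in GFP+ versus 260 FPKM in GFP-, and *Mpc2*, a subunit of the pyruvate carrier, at 46.8 against 174 FPKM. *Abcb10*, an inner membrane transporter tied to heme synthesis, was at 60.6 against 13.9 FPKM, and *Sfxn2*, a sideroflexin, at 16.9 against 4.72 FPKM. Among wider gene families, 76 respiratory chain subunits had a median of -1.69 and 67 were at least 2-fold lower, and 76 mitochondrial ribosomal proteins had -1.65 with 70 at least 2-fold lower. Cytosolic ribosomal proteins, which are not mitochondrial, had -1.98 over 65 genes, with 56 at least 2-fold lower. Of these 65, 9 passed 1 FPKM only through GFP-, so their sign was set by the filter. With one total, the counts for the 3 families were 45 of 77, 43 of 76 and 50 of 71, beside 10.7% of all tested genes. Their medians were -1.07, -1.07 and -1.43. Of those 71 cytosolic genes, 15 passed the filter through 1 library only. As deposited, the import genes at -1.34 lay nearer to these families than to the carriers. Those families have short transcripts too, with medians of 913, 1339 and 914 bases.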

How the data were processed

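Messenger RNA of 1 GFP- and 1 GFP+ library was deposited as FPKM per gene, with an upper and a lower bound and a status, per the file headers. The submitters' processing notes name mm10 and the tools FastQC, TopHat2 0.7, Cufflinks and Cuffdiff. Annotation, library scaling, strand setting and multi-mapping rule: not given in the sources used here. The 5 GFP+ rows of status HIDATA were left out as not estimated. All 72 members had status OK.

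FPKM was summed per symbol (23532 symbols estimated in both libraries). Those with 1 FPKM or more in the higher library were compared on the log2(FPKM + 1) scale, which understates the change of low genes. With 1 library per fraction, size rules of 4-fold and 2-fold replace a test. The deposited FPKM hold no counts. Low values of long single-transcript genes came in steps near 59.0 (GFP-) and 59.7 (GFP+) fragments per FPKM and kilobase, with 76.1% of 113 and 61.6% of 86 values within 0.1 of a whole number. That step was itself picked from these values. Every lower bound of the members was 0, and upper bounds were a median of 2.34 (GFP-) and 2.37 (GFP+) times the FPKM, so bounds overlapped for each member with a value. Lengths and overlaps came from GENCODE M21, near-identical copies from blastn 2.17.0, and promoters from RefSeq (57 of 71 coding members matched). The calculation was tested on simulated data. Any member may be named, apart from 1 carrier that is counted in its group but not reported here. Those at least 4-fold apart, the 10 highest and 10 lowest differences, the most abundant members, those going against their role group and the translocase members are given in full. Of each list outside the rule, up to 4 genes with the largest absolute difference are named (*Hspa9*, *Grpel1* and *Grpel2* were added after their values were seen). Members, role groups and lists were chosen with earlier results of these data known. Python 3.11.15 was used.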

Additional observations from a re-analysis of the deposited data

How the results depend on the processing

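As deposited with a pseudocount of 1, 5 members were at least 4-fold lower and 1 higher, 22 were 2-fold lower and 4 higher, and the medians were -0.73 (members), -0.08 (carriers) and -1.34 (import genes). A pseudocount of 0.1 gave 2 members 4-fold higher and 7 2-fold higher. The calls it added were *Slc25a43* (2.05, the second at 4-fold), *Slc25a53* (1.62) and *Slc25a27* (1.22). These are the 3 members that passed 1 FPKM only through GFP+, so their sign was set by the filter. A pseudocount of 5 gave 3 members 4-fold lower. Shares of all tested genes at these pseudocounts are not given here. With no filter on low values the member median was -0.47, as 11 more genes near 0 entered, and with a minimum of 5 FPKM the carrier median was -0.37 over 33 carriers. With the median ratio of well-expressed genes set to 0, 2 members were 4-fold lower and 2 higher, 12 were 2-fold lower and 10 higher, and the medians were -0.27, 0.39 and -0.92. With both libraries rescaled to one total these were 1, 3, 10, 12, -0.14, 0.41 and -0.85, in the same order. The carrier median thus reversed under both scalings, which by construction raise every GFP+ value relative to GFP-. *Tomm5* met the 4-fold rule under both scalings, and *Timm8a1* with the median ratio set to 0. *Timm10* and *Tomm40* missed it with a pseudocount of 5 as well as under both scalings, and *Timm8b* missed it under both scalings. Leaving out rows with a shared locus, chosen after seeing the data, left 49 tested members. It removed *Slc25a35* and left 0 members 4-fold higher. It also removed *Timm8b*, which was at least 4-fold lower, and the import genes *Timm9*, *Timm13*, *Timm21*, *Tomm6*, *Tomm7* and *Tomm40l*. The other tested carriers removed were *Slc25a25*, *Slc25a26*, *Slc25a39* and *Slc25a53*. No other count moved by more than 1.5 times when joined rows, rows of another status or *Tomm6os* were left out. No replicate could be left out and no paired analysis was possible because each fraction has 1 library. Upper bounds of over 5 times the FPKM mark *Slc25a26* and *Tomm7* as the least certain tested members.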
